A study of Mus musculus with 5 samples.

Results

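The binding of IRF8 in LPS-activated mouse B cells was followed over culture time by setting the peak list made after 72 h beside the list made after 48 h. The members are the 1059 peaks of the 72 h list and the 234 peaks of the 48 h list, 1293 of the 5590 regions in the 5 lists of the series. A place was kept when a peak of each list overlapped by at least 1 bp, and the remaining peaks belonged to 1 list alone. The series mapped IRF4 and IRF8 by chromatin immunoprecipitation and sequencing (ChIP-seq) in C57BL/6 mouse B cells. Naive wild-type B cells of the spleen were cultured with 10 µg/ml lipopolysaccharide (LPS), a molecule of bacterial outer membranes sensed by the receptor TLR4, and IRF8 was precipitated with antibody C-19 at 72 h and at 48 h. The places were also looked up in the IRF4 lists of the same cultures (antibody M-17, 72 h and 48 h) and in an IRF8 list of germinal centre (GC) B cells taken 13 days after immunisation with NP-KLH. Each group held 1 library, the 72 h IRF8 header carries the mark of a second replicate, and no input library was named for any of the LPS lists. Every interval and p-value below therefore describes these libraries and their counting error, not the spread between cultures.

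IRF8 is a transcription factor of the interferon regulatory factor family that B cells, dendritic cells and macrophages use. It binds DNA weakly alone and is recruited by PU.1 or SPIB, factors of the ETS family, to the composite element EICE. With other IRF family members it binds the interferon-stimulated response element (ISRE) of interferon-induced genes. In B cells it is known to favour the germinal centre programme and antigen presentation, whereas its relative IRF4 at high level drives plasma cell formation and also works with AP-1 proteins of the BATF and JUN families. Within 100 bp of a peak centre, both strands were searched for fixed letters: EICE as GGAANNGAAA, the ISRE core as GAAANNGAAA, AP-1 as TGACTCA or TGAGTCA, and a PU.1-type ETS site as AGGAAGT. The letters of 1 site can lie inside or across those of another, as when the ETS letters run into an EICE.

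The first set of sequences shows the EICE under kept places with large ratios of 72 h over 48 h, under a kept MHC gene, and under peaks of 72 h alone that stand high in the list or lie at immune genes. Capitals mark the EICE letters, and each line is read 5′ to 3′ from the mm9 genome (NCBIM37).
Pax5, kept (chr4:44684058-44684097, plus strand): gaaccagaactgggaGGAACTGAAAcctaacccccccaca
Pamr1, kept (chr2:102478430-102478469, minus strand): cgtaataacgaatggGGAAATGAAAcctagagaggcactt
Ripk2, kept (chr4:16086878-16086917, plus strand): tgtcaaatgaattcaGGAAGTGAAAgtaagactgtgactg
H2-DMb2, kept (chr17:34280110-34280149, plus strand): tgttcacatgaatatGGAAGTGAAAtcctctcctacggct
Snx29, 72 h alone (chr16:11386047-11386086, minus strand): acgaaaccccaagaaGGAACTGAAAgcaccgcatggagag
Ctss, 72 h alone (chr3:95325284-95325323, minus strand): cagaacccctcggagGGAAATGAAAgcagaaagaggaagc
Plcg2, 72 h alone (chr8:119999893-119999932, plus strand): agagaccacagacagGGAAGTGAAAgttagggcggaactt

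The second set shows ISRE cores, marked by capitals, under Erap1, the highest kept place with this site, and under distal and promoter peaks found at 72 h alone. Most of the cores shown carry GT or CT between the GAAA repeats. Among all 102 peaks of 72 h alone with an ISRE, GT was found in 28 (27.5%) and CT in 19 (18.6%).
Erap1, kept (chr13:74777287-74777316, minus strand): gcccgggaccGAAAGTGAAAgtgaaggtgg
Stoml1, 72 h alone (chr9:58119114-58119153, plus strand): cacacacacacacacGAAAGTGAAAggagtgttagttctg
Psmb8, 72 h alone (chr17:34335280-34335309, minus strand): acaaggaagtGAAAGCGAAAgccacagtac
Tapbp, 72 h alone (chr17:34056576-34056605, plus strand): gaaggaaaatGAAAGTGAAAggggaagaaa
Gbp7, 72 h alone (chr3:142193232-142193271, minus strand): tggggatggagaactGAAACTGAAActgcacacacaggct
Irgm2, 72 h alone (chr11:58028400-58028439, plus strand): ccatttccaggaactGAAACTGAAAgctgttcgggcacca

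The last set shows AP-1 sites, marked by capitals, at the highest named kept place with this site and at the highest peak of 48 h alone with it.
Tcfeb, kept (chr17:47905762-47905798, plus strand): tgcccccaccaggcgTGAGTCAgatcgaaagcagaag
Cd83, 48 h alone (chr13:43856680-43856716, plus strand): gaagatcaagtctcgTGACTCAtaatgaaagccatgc

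The libraries behind the lists differed in enrichment more than in depth. The 72 h library held 3065426 tags with 0.52% of them in peaks, against 4375858 tags and 0.18% in the 48 h library. The headers give a false discovery threshold of 9 tags at 72 h and 11 at 48 h. After scaling to 1e+07 per library this is 29.4 tags at 72 h and 25.1 at 48 h. These are normalised tags, the unit of all tag values below. Listed peaks went down to 22.8 at 72 h and 20.6 at 48 h, so the threshold is no floor of the listed counts. The local filter removed 98 of 1157 candidate peaks at 72 h and 116 of 350 at 48 h. Peaks in repeated sequence were set aside: 134 multi-copy and 11 unplaced peaks at 72 h, and 49 and 8 at 48 h. They held 37.7% of the tags in peaks at 72 h and 62.1% at 48 h, which left 914 single-copy peaks at 72 h and 177 at 48 h. Fewer bound places and a weaker enrichment of the same places at 48 h cannot be told apart in these lists.

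Many single-copy IRF8 places of the 48 h list lay in the 72 h list, and most places of the 72 h list had no peak at 48 h. Of the 177 single-copy 48 h peaks, 100 lay in the 72 h list (56.5%, exact Clopper-Pearson 95% interval 48.9 to 63.9), and with both lists cut to the same length 39.5% did (32.3 to 47.2). For 95 of them the 72 h peak was single-copy too, and these are the kept places described here. A further 819 single-copy peaks were found at 72 h alone and 77 at 48 h alone. In the full lists 138 pairs overlapped, of which 38 were set aside at both times and 5 were single-copy at 1 time only. Peak centres of the kept places differed by a median of 21 bp and at most 220 bp.

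Whether a 72 h peak was also in the 48 h list followed its height. Of 423 single-copy 72 h peaks under 30 normalised tags, 10 lay in the 48 h list (2.36%, 1.14 to 4.30), and of 326 with 30 to 40 tags 23 did (7.06%, 4.52 to 10.4). The count was 31 of 114 with 40 to 60 tags (27.2%, 19.3 to 36.3) and 27 of 47 with 60 to 100 tags (57.4%, 42.2 to 71.7). All 4 peaks above 100 tags, at Pak3, Axin2, Erap1 and Pax5, were kept. Most peaks of 72 h alone were thus low: their median was 29.4 tags, at the threshold of the 72 h header, with a range of 22.8 to 91.3. If the 48 h library held each of them at the median ratio of the kept places, 103 of the 819 would have reached the 48 h header threshold of 25.1 and 716 would not. To reach it a peak needed 39.4 tags at 72 h. Listed 48 h peaks went down to 20.6, and 72 h peaks below 39.4 were also kept. The split therefore does not show which peaks could have been listed at 48 h. The absence of these 716 from the 48 h list is no measure of a change at them. The ratio comes only from places that passed the caller at both times. Whether it holds for the 819 was not tested, so the 103 are no count of gains.

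**Figure D1:**
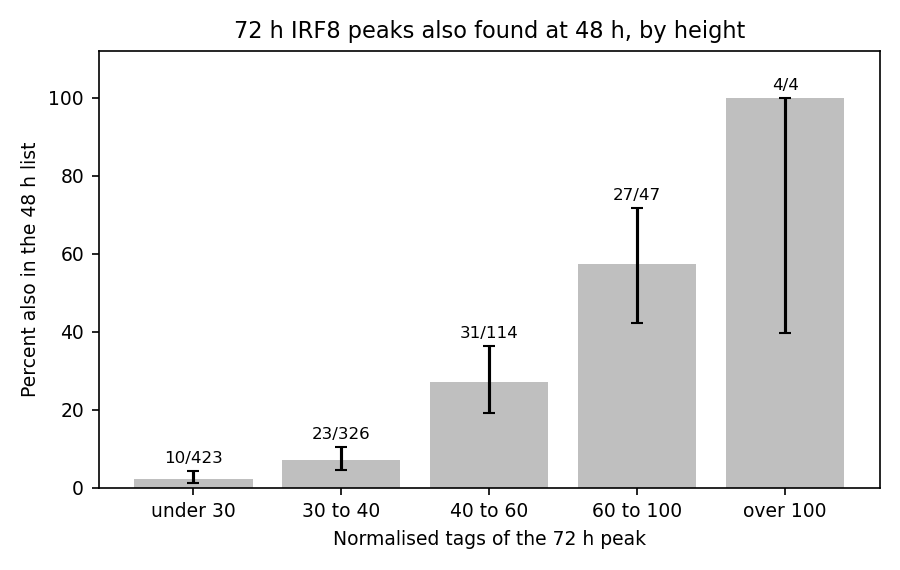
Percent of single-copy 72 h IRF8 peaks that overlapped a 48 h peak, by the normalised tag count of the 72 h peak. Bars give the percent, the lines exact 95% intervals for counting error, and the fractions the counts, which run from 10 of 423 peaks under 30 tags to 4 of 4 above 100.

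At the kept places the 72 h library carried more tags almost throughout. The highest place, 35.5 kb from a start of Pak3, which encodes a p21-activated kinase, had 205.5 tags at 72 h (exact Poisson 95% interval 157.9 to 262.9) and 153.1 at 48 h (118.7 to 194.4). The median place had 48.9 tags at 72 h and 27.4 at 48 h. On the log2 scale the ratio of 72 h to 48 h tags had a median of 0.65, which is 1.57-fold, with quartiles of 0.37 and 0.90 and a range of -0.11 to 1.71. Of the 95 places 92 were higher and 3 lower at 72 h. The 38 places set aside for repeated sequence at both times moved less, with a median log2 ratio of 0.37 and 32 of 38 higher. The share of tags in peaks, 0.52% at 72 h and 0.18% at 48 h, moved in the same direction, and its part in the ratios was not tested. The values of the kept places bear on the peaks that passed the caller at both times, so a place that vanished from either library is not among them.

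**Figure D2:**
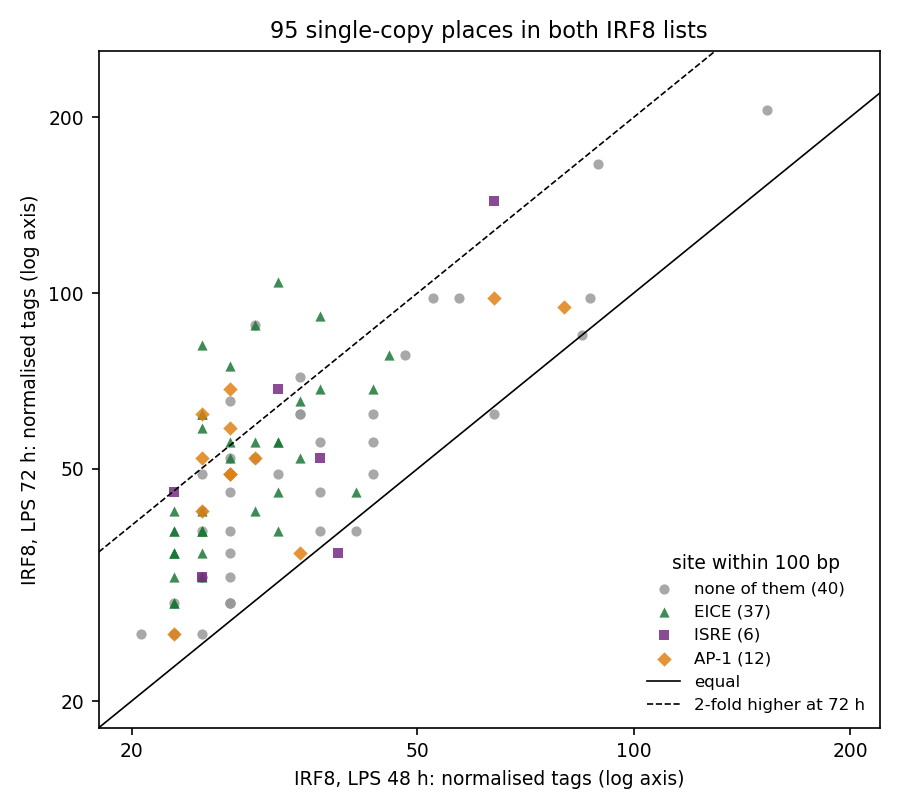
Normalised IRF8 tags at the 95 single-copy kept places, 72 h on the vertical and 48 h on the horizontal log axis, 1 point a place. Symbols give the site within 100 bp of the 72 h centre, with EICE named before ISRE and AP-1 where a place holds more than 1. The solid line marks equal values and the dashed line a 2-fold higher value at 72 h, and 92 of 95 points lie above the solid line.

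By size, 18 of the 95 kept places (18.9%) were at least 2-fold higher at 72 h and 0 (0%) were at least 2-fold lower. By an exact two-sided binomial test of the tags, with Benjamini-Hochberg adjustment over the 95 places, 7 places (7.37%) were higher at 72 h and 0 (0%) were lower. Without adjustment the same exact test gave 18 higher and 0 lower. The 7 places lie at Pax5, Ifnar2, Recql5, Pamr1, Gm4968, Erap1 and Axin2. After scaling both libraries to the same median at the kept places, 2 places remained at least 2-fold higher and 0 passed the test, so each of these 7 calls rests on the scaling by library totals. With the stricter rule on repeated sequence 3 places passed, and with all peaks included 17 did.

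Pax5 had the largest ratio. Pax5 encodes the factor that holds B cell identity and is shut off in plasma cells. Its intronic place (chromosome 4, 44683806 to 44684306), 12.6 kb from a start, had 104.4 tags at 72 h and 32.0 at 48 h. The intervals of 71.4 to 147.4 at 72 h and 17.5 to 53.7 at 48 h do not overlap, and the ratio was 3.26 (1.69 to 6.62; exact binomial adjusted p = 0.0122). IRF4 was on the same place with 92.9 tags at 72 h and 76.5 at 48 h, and the place is in the GC list.

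Ifnar2, a chain of the type I interferon receptor, had an EICE place 25.1 kb from its start with 81.6 tags at 72 h and 25.1 at 48 h. Its ratio was 3.25 (1.54 to 7.30; exact binomial adjusted p = 0.0200). Unlike the Pax5 place, it was in neither IRF4 list and not in the GC list. Erap1, whose product cuts peptides to length for loading on MHC class I, carried an ISRE and a peak centred 11 bp from its start. It had 143.5 tags at 72 h and 64.0 at 48 h, a ratio of 2.24 (1.37 to 3.74; exact binomial adjusted p = 0.0200). Erap1 was in the GC list and in neither IRF4 list.

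Recql5, a DNA helicase of the RecQ family, and Pamr1 each had 88.1 tags at 72 h and 29.7 at 48 h at an intronic place 2.44 kb and 2.29 kb from a start. Both ratios were 2.97 (1.48 to 6.26; exact binomial adjusted p = 0.0200). The Pamr1 place held an EICE and the Recql5 place none of the EICE, ISRE and AP-1 letters. The place 12.3 kb from the predicted gene Gm4968 had 91.3 tags at 72 h and 36.6 at 48 h, with an EICE and an ISRE that follow each other on the same strand. Its exact binomial adjusted p was 0.0493, equal to that of the place at Axin2, which had 166.4 tags at 72 h and 89.1 at 48 h. Axin2, a negative regulator of WNT signalling, lies 68.3 kb from its place, beyond the 50 kb used for naming. The Axin2 place also held none of these letters. IRF4 had 196.5 tags at 72 h and 194.3 at 48 h there, and 87.6 at 72 h and 58.9 at 48 h at Recql5. Both are among the 20 kept places without these letters in both IRF4 lists. Whether such places carry a factor or gather tags in every library was not tested.

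Other kept places of the same height missed the test. Ripk2, a kinase that acts behind the NOD receptors of the innate immune system, had 75 tags at 72 h and 27.4 at 48 h at an intronic EICE (ratio 2.74, exact binomial adjusted p = 0.0615). Cdk8, the kinase of the Mediator complex, had 97.9 tags at 72 h and 52.6 at 48 h, and the place nearest to Sfi1, a centrosomal protein gene, had 97.9 at 72 h and 57.1 at 48 h. The Sfi1 place held none of the sites, was in both IRF4 lists and is 1 of the 5 kept places within 500 kb of the first sequenced base of a chromosome. Tcfeb, which encodes the lysosomal regulator TFEB, had 97.9 tags at 72 h and 64.0 at 48 h at an AP-1 site 406 bp from its start. Their adjusted p-values in the exact binomial test were above 0.05.

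The lowest ratios were close to 1. Rhebl1 had 35.9 tags at 72 h and 38.8 at 48 h, Kctd16 had 62.0 at 72 h and 64.0 at 48 h, and an intron of Wwox had 39.1 at 72 h and 41.1 at 48 h. These are the 3 places with fewer tags at 72 h, and the 95% interval of each ratio includes 1. Near equality was also found at Cdk5rap2, a centrosomal protein gene, with 84.8 tags at 72 h and 84.6 at 48 h. Gnptab, which tags lysosomal enzymes, had 35.9 at 72 h and 34.3 at 48 h, and the MHC class I gene H2-Q4, one of a family of close copies among which tags can be split, had 39.1 at 72 h and 36.6 at 48 h.

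**Figure D3:**
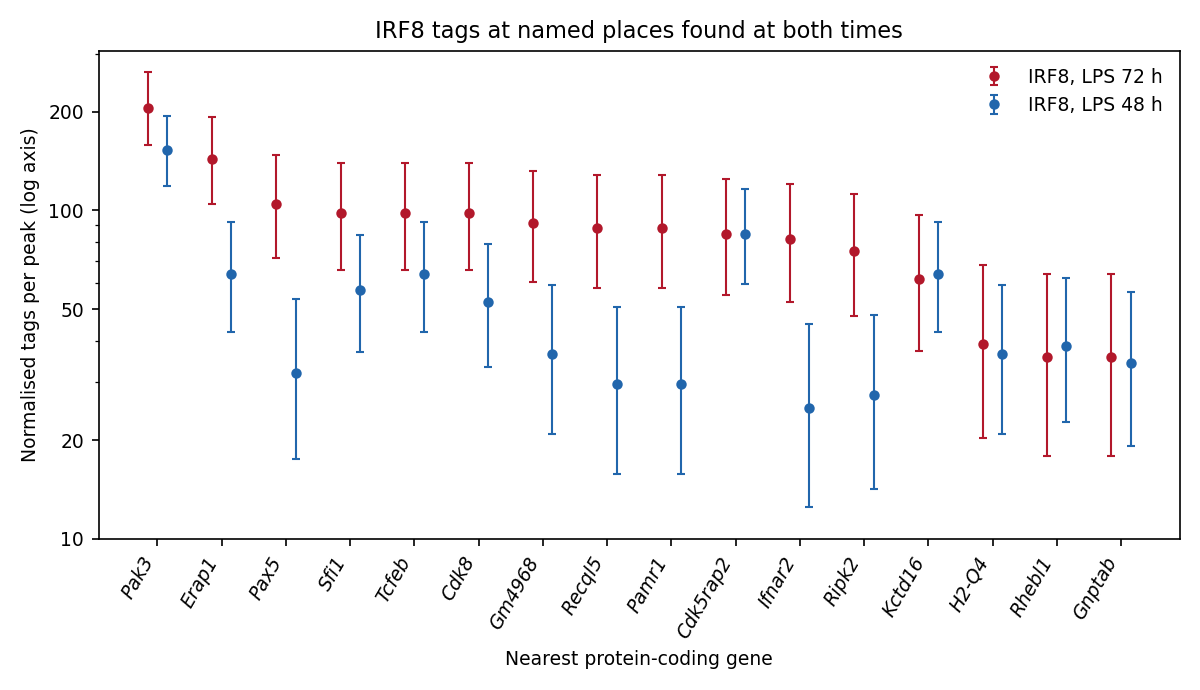
Normalised IRF8 tags (log axis) at the named kept places, 72 h left of 48 h for each gene, with exact Poisson 95% intervals that cover counting error only. The intervals at Pax5, Erap1, Gm4968, Recql5, Pamr1 and Ifnar2 do not overlap, whereas the points at Cdk5rap2, Kctd16 and Rhebl1 lie side by side.

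The median ratio was higher at places with an EICE than at places with none of the sites. The median log2 ratio was 0.77 at the 35 kept places with an EICE alone, and all 35 were higher at 72 h. It was 0.82 at 12 places with an AP-1 site alone, 0.81 at 4 with an ISRE alone and 0.47 at 40 with none of these sites. The interquartile ranges of 0.62 to 0.93 for the EICE and 0.18 to 0.82 for none overlap, and the difference was not tested. Of the places with no site, 20 were in both IRF4 lists and had a median of 0.40, and the other 20 had 0.61. Kept promoter places, within 1000 bp of a start, had a median of 0.45 (n = 10) and distal places 0.71 (n = 85).

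The EICE lay under more of the 72 h alone peaks and of the kept places than the ISRE or AP-1. At 48 h alone the EICE lay under 9 of 77 peaks and AP-1 under 8. Over whole 48 h alone peaks AP-1 was at 16.9% (9.31 to 27.1) and the EICE at 14.3% (7.35 to 24.1). These intervals overlap, and no background was counted for whole peaks. Within 100 bp the EICE lay under 22.8% of the 819 peaks of 72 h alone (187 peaks, 20.0 to 25.9). It lay under 38.9% of the kept places (37 of 95, 29.1 to 49.5) and under 11.7% of the 77 peaks of 48 h alone (9 peaks, 5.49 to 21.0). Windows of the same length 1000 bp to each side held it in 1.34%, 3.68% and 2% of cases in that order. In 255829 windows spaced over the genome the share was 2.24%, and in 22377 windows at gene starts it was 1.56%. The intervals of the 72 h alone and 48 h alone peaks overlap, and the 48 h share rests on few peaks. The order of the 72 h alone peaks and the kept places was lost with lists of the same length. The share was then 41.4% at 72 h alone and 38.5% at kept places. With at least 40 tags in both lists it was 41.9% at 72 h alone and 17.6% at kept places. There a 72 h peak whose 48 h partner had fewer than 40 tags, as at Pax5, counted as 72 h alone. The 40-tag shares therefore do not compare the classes used here. Among 72 h peaks of at least 40 tags, 21 of 55 with an EICE alone and 25 of 62 with none of the sites lay in the 48 h list. EICE letters stood close to the peak centre, at a median distance of 18.5 bp at 72 h alone, 13.5 bp at kept places and 18.5 bp at 48 h alone.

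The ISRE share was lowest in the peaks of 48 h alone, where it rests on 3 peaks. It lay under 12.5% of the peaks of 72 h alone (102 peaks, 10.3 to 14.9), 8.42% of the kept places (8 peaks, 3.71 to 15.9) and 3.90% of the peaks of 48 h alone (3 peaks, 0.811 to 10.97). The flanking windows gave 2.99%, 2.63% and 1.33%, and the genome 3.30%. The interval of the 48 h alone share overlaps that of the 72 h alone share and includes the genome share, and the difference was not tested. The ETS letters followed the same order, with 16.1% at 72 h alone (13.7 to 18.8), 13.7% at kept places and 6.49% at 48 h alone (2.14 to 14.5), against 4.73% of genome windows.

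The AP-1 shares of the classes had overlapping intervals. AP-1 letters lay under 8.18% of 72 h alone peaks (6.40 to 10.3), 14.7% of kept places (8.30 to 23.5) and 10.4% of 48 h alone peaks (4.59 to 19.4), against 3.17% of genome windows. The flanking windows gave 4.03%, 5.26% and 6% in that order. The 48 h alone interval includes its flank share, while those of 72 h alone and of kept places lie above theirs. None of the EICE, ISRE and AP-1 letters was found under 60.4% of 72 h alone peaks, 42.1% of kept places and 76.6% of 48 h alone peaks. A missing match says only that these letters are not in the window.

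**Figure D4:**
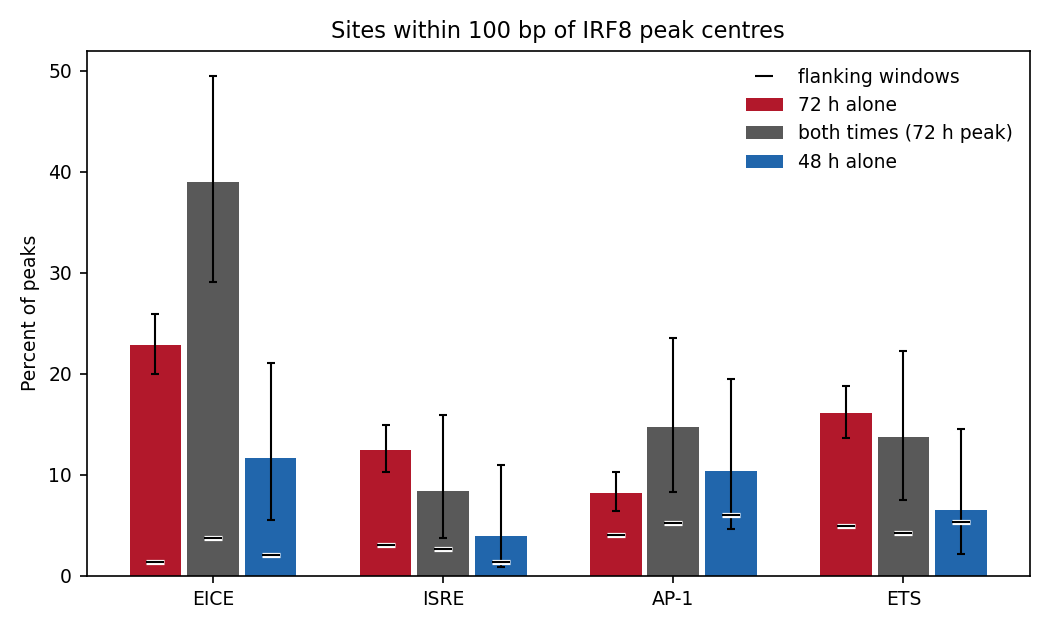
Percent of single-copy IRF8 peaks with each site within 100 bp of the centre, for peaks of 72 h alone, kept places and peaks of 48 h alone. Lines give exact 95% intervals and short black marks the share in flanking windows. The EICE bar is highest at the kept places, at 38.9%. That order was lost with both lists cut to the same length (41.4% at 72 h alone and 38.5% at kept places).

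The share of kept places was also taken with low peaks left out. Among 72 h peaks with at least 40 tags, 21 of 55 with an EICE alone were kept (38.2%, 25.4 to 52.3), as were 10 of 18 with an AP-1 site alone (55.6%, 30.8 to 78.5) and 25 of 62 with none (40.3%, 28.1 to 53.6). Of the 17 with an ISRE alone 3 were kept (17.6%, 3.8 to 43.4). All 4 intervals overlap at this depth. Among these peaks of at least 40 tags, 33 of 68 that lay in both IRF4 lists were kept (48.5%, 36.2 to 61.0), against 13 of 65 in neither (20.0%, 11.1 to 31.8), and these intervals do not overlap. Height within this set was not matched, and the kept share also climbs with height in it, so the part of height in this contrast was not tested.

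The highest peaks of 72 h alone included places with an EICE, with an ISRE and with neither. Stoml1, a membrane protein gene, headed them with 91.3 tags (60.7 to 132.0) at an ISRE 18.2 kb from its start, in the GC list and with IRF4 at 69.0 tags at 72 h and 82.4 at 48 h. Snx29, a sorting nexin gene, had 78.3 tags at an intronic EICE with IRF4 at 66.4 tags at 72 h and 82.4 at 48 h, again in the GC list. IRF4 therefore had peaks at 48 h on both places where the IRF8 list had none.

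Ppfibp2, a liprin gene, had 78.3 tags 0.881 kb from its start with none of the sites. Ptk2b, the kinase PYK2, had 75 tags in an intron. Neither was in an IRF4 list or the GC list. Hes1, a repressor downstream of Notch, had 65.2 at an ISRE in the GC list. The mitochondrial adenylate kinase gene Ak3, the deubiquitinase gene Stambpl1 (with an ISRE), Bend5 and 5430435G22Rik (with an EICE) had 65.2 each.

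Bach2, a repressor of plasma cell differentiation, had 3 peaks at 72 h alone. Its EICE peak in an intron had 68.5 tags and lay 58.6 kb from the nearest start, beyond the distance used for naming, so it was picked after its value was seen. IRF4 had 66.4 tags there at 72 h and 120.7 at 48 h, and the place is in the GC list. The other 2 Bach2 peaks had 58.7 tags without a site and 42.4 tags at an EICE.

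The 77 peaks of 48 h alone were low, with a median of 25.1 tags and a range of 20.6 to 52.6, and 20 of them were at or above the 72 h threshold of 29.4. Fbxw4, an F-box protein gene, headed them with 52.6 tags (33.3 to 78.9) in an intron, where IRF4 had 87.6 tags at 72 h and 73.6 at 48 h. Rapgef4, an exchange factor for RAP1 activated by cyclic AMP, had 45.7 tags and was in the GC list. Cd83, a surface protein of activated B cells and dendritic cells, had 43.4 tags (26.1 to 67.8) at AP-1 letters 23.8 kb from its start, with IRF4 at 34.5 tags at 72 h and 50 at 48 h. Of the peaks within 50 kb of a start, the next was at Pisd, a mitochondrial lipid enzyme gene, with 34.3 tags. The zinc transporter gene Slc30a4, an AP-1 peak in an intron of Shank3 nearest to Acr, and an intron of Cntn4 had 32.0 tags each. Cntn4 is named to complete this tie.

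Promoter peaks of 72 h alone were rich in ISRE letters. Of 82 promoter peaks, 29 held an ISRE (35.4%, 25.1 to 46.7), against 73 of 737 distal peaks (9.91%, 7.84 to 12.3) and 2.08% of all windows at gene starts. The EICE shares were closer, at 26.8% of promoter peaks (22 peaks) and 22.4% of distal peaks (165 peaks). Of the 29 promoter peaks with an ISRE, 22 lay in the GC list (75.9%, 56.5 to 89.7), 8 in that of IRF4 at 72 h and 1 in that of IRF4 at 48 h. Of the 38 promoter peaks with neither EICE nor ISRE 6 lay in the GC list (15.8%, 6.02 to 31.3). In distal peaks the GC list held 23 of 73 with an ISRE (31.5%, 21.1 to 43.4) and 55 of 508 with neither (10.8%, 8.26 to 13.9). Of the 10 kept promoter places 2 held an ISRE, those at Erap1 and Rhebl1 (20.0%, 2.52 to 55.6), an interval that includes the share at 72 h alone.

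Further ISRE promoters of 72 h alone serve as examples. Usf1, a basic helix-loop-helix factor gene, had 58.7 tags, Nmi, which encodes a partner of MYC and STAT proteins, 55.5, Flt3l, a cytokine gene for dendritic cell growth, 48.9, and Socs1, an inhibitor of cytokine signalling, 35.9. They were chosen after their values were seen, from the 29, and lay in the GC list, which holds most of the 29. Each value rests on 11 to 18 tags.

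Genes of antigen presentation and immunity were described by lists. Across all 22238 protein-coding genes, 593 (2.67%) were nearest to a peak of 72 h alone within 50 kb, 60 (0.27%) to a peak of 48 h alone and 76 (0.342%) to a kept place. Of the 221 list genes found in the annotation the counts were 33, 4 and 8. These counts describe the lists and were not tested.

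In the interferon-induced GTPase list, proteins that attack intracellular pathogens, 4 of 17 genes had a peak of 72 h alone and 0 had another kind. Irgm1 had 42.4 tags, Gbp7 35.9, Irgm2 32.6 and Gbp3 26.1, and none had a 48 h peak. All 4 peaks were at the promoter, held an ISRE and lay in the GC list, and IRF4 had tags at Gbp7 (29.2) and Gbp3 (39.8) at 72 h. Members of the family resemble each other, so tags can be split between copies, although these 4 peaks were single-copy by the rule used here.

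Among other interferon-stimulated genes 5 of 34 had a peak of 72 h alone and 0 a kept place or a 48 h peak. Trim21, a cytosolic antibody receptor, had 39.1 tags at a promoter ISRE. Trim25, a ubiquitin ligase of RNA sensing, had 32.6 tags at a promoter EICE and 32.6 at a second peak 24.5 kb away. Rnf213 had 29.4, Parp9 29.4 and Isg20, an exonuclease, 26.1. With 8 to 12 tags each, these peaks stood near the threshold.

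The MHC class I list had 2 genes of 16 with a peak of 72 h alone and 2 with a kept place. Psmb8, an immunoproteasome subunit, had 52.2 tags and Tapbp, the loading chaperone tapasin, 39.1, both at promoter ISREs and both in the GC list. Psmb9, the neighbouring immunoproteasome subunit, was kept at an EICE with 39.1 tags at 72 h and 22.9 at 48 h (exact binomial adjusted p = 0.503). Erap1, given above, was the other kept gene and the only one of this list to pass the test.

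In the MHC class II list 4 of 13 genes had a peak of 72 h alone. Ctss, the protease cathepsin S that cleaves the invariant chain, had 62.0 tags at an EICE, and Cd74, the invariant chain itself, had 35.9 and 29.4 at EICEs 11.7 kb and 82 bp from its start. H2-Oa, a subunit of the peptide exchange inhibitor H2-O, had 32.6 and March1, a ligase that removes class II from the surface, 22.8. All but the March1 peak lay in the GC list. H2-DMb2, a subunit of the peptide exchanger H2-M, was kept at a promoter EICE with 39.1 tags at 72 h and 22.9 at 48 h (ratio 1.71, 0.678 to 4.43; exact binomial adjusted p = 0.503).

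B cell receptor signalling had 6 of 24 genes with a peak of 72 h alone and 2 with a peak of 48 h alone. Plcg2, the phospholipase of the receptor, had 55.5 tags and Inpp5d, the inhibitory phosphatase SHIP1, 52.2, both at EICEs in the GC list. Grap, an adaptor, had 32.6 IRF8 tags at 72 h beside IRF4 tags of 85 at 72 h and 247.3 at 48 h. Pik3ap1, the adaptor BCAP, had a 72 h alone peak of 29.4 tags and a separate 48 h alone peak of 29.7 in the same gene. Syk, annotated as Sykb, the receptor's kinase, had 25.1 tags at 48 h alone.

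Of the B lineage transcription factors 5 of 25 had a peak of 72 h alone and 2 a kept place. Besides Bach2, these were Bcl11a, Etv6 and Ets1 with 32.6 tags each and Irf4 with 26.1 at an EICE 20.9 kb away. The kept places were at Pax5 and Pou2f2, the factor OCT2, which had 65.2 tags at 72 h and 27.4 at 48 h (ratio 2.38, 1.11 to 5.34; exact binomial adjusted p = 0.136). The plasma cell list had 1 gene of 15 at 72 h alone, again Irf4, and 0 in the other classes. The count takes only peaks within 50 kb of a start. An EICE peak of 72 h alone nearest to Prdm1, picked after the lists were seen, is not in it.

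The remaining lists held few places. Germinal centre and activation genes had 2 of 19 at 72 h alone, Cd83 at a second place (39.1) and the chemokine receptor Cxcr5 (35.9), and Icosl, the ICOS ligand, was kept with 39.1 tags at 72 h and 25.1 at 48 h. Toll-like receptor and NF-kappaB genes had 3 of 25, among them the LPS receptor Tlr4 with 39.1 tags at its promoter, and Nfkb1 had 25.1 tags at 48 h alone. Apoptosis genes had 2 of 17 at 72 h alone, Bcl2l11 with 32.6 tags and Mcl1 with 29.4, both at AP-1 letters. An EICE peak of 72 h alone nearest to Bcl2, also picked after the lists were seen, is not in this count. In the list of Myc and cell cycle genes 0 of 19 had a peak of 72 h alone, and Cdk8 and Myc were kept. The Myc place, 12.4 kb from its start with an EICE, had 35.9 tags at 72 h and 25.1 at 48 h, 11 tags in each library.

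Among all single-copy peaks, kept places were shared with other lists far more than the peaks of 1 time alone. Of the kept places, 86.3% lay in at least 1 of the other 3 lists (77.7 to 92.5), against 36.8% of 72 h alone peaks (33.4 to 40.2) and 31.2% of 48 h alone peaks (21.1 to 42.7). The IRF4 72 h list held 18.7% of 72 h alone peaks, 58.9% of kept places and 16.9% of 48 h alone peaks. The IRF4 48 h list held 20.9%, 70.5% and 27.3% in the same order, and the GC list 18.3%, 37.9% and 7.79%. The GC list was called with another program and in another cell type, so cell type and caller cannot be told apart in these shares. Kept places also had more tags. With both lists cut to the same length, the GC list held 41.4% of 72 h alone peaks and 38.5% of kept places. The IRF4 72 h list then held 44.0% of 72 h alone peaks and 58.5% of kept places. The part of height in the sharing was not tested.

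**Figure D5:**
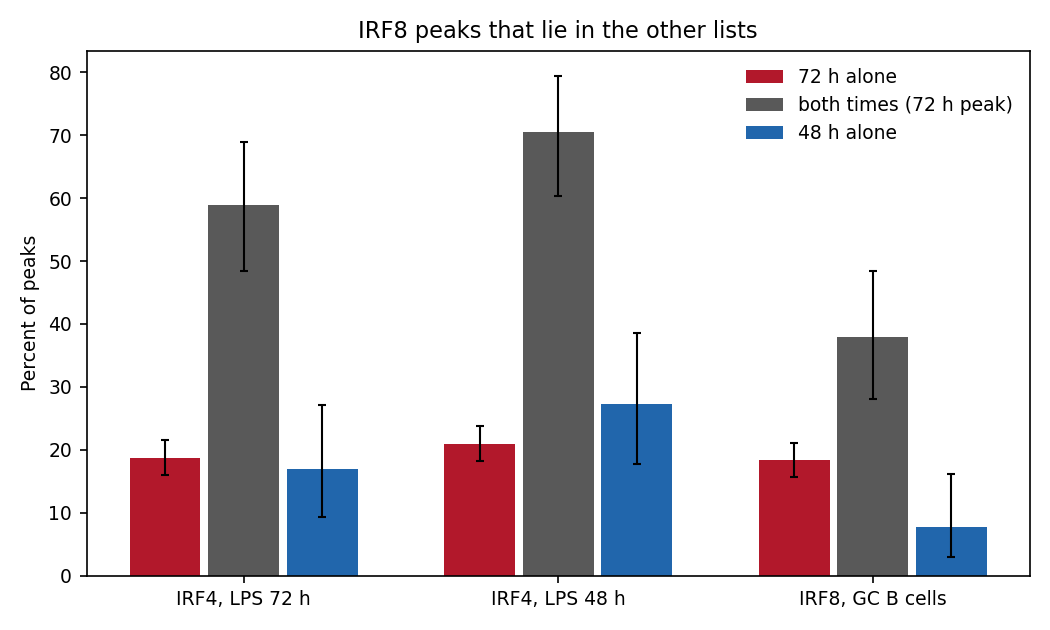
Percent of single-copy IRF8 peaks that overlapped the IRF4 lists at 72 h and 48 h and the IRF8 list of GC B cells, for peaks of 72 h alone, kept places and peaks of 48 h alone, with exact 95% intervals. The kept places stand highest in every list, at 58.9%, 70.5% and 37.9%. For the GC list that order was lost with both lists cut to the same length (41.4% at 72 h alone, 38.5% at kept places).

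The tags of IRF8 and IRF4 moved differently between the culture times at shared places. At the 49 kept places that were in both IRF4 lists, the median log2 ratio between the times (72 h over 48 h) was 0.77 for IRF8 and -0.15 for IRF4. At 31 of them IRF8 was higher and IRF4 lower at 72 h, at 17 both were higher, and at 1 IRF8 was lower. Where an EICE was the only site the medians were 0.78 for IRF8 and -0.02 for IRF4 (n = 19), and where an AP-1 site was alone they were 0.81 and -0.30 (n = 9). The 4 medians come from 4 libraries of differing enrichment, and the difference between the factors was not tested.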

How the data were processed

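IRF8 peak lists of LPS cultures at 72 h and 48 h were compared, with the other 3 lists used for overlap. Per the file headers, the authors called the peaks of the LPS lists with HOMER findPeaks in its factor style, with 500 bp peaks, a false discovery rate of 0.001 and at least 4-fold over the surrounding 10000 bp. The signal used is the deposited normalised tag count, for which the authors set every library to 1e+07 tags. The deposited focus ratio, a fraction, is the share of tags on the proper side of the peak centre, the score is the authors' tag number under a limit of 1 tag per position, the local and clonal ratios are the authors' folds, and the p-value of a peak is the authors' Poisson value. The GC list gives positions in deposited BED form. BWA and Bowtie2 are named in the submitters' processing notes, and which aligned what is not given in the sources used here. The build was mm9 per the labels.

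Normalised tags divided by the scaling gave whole tags within 0.05 for 100% of peaks. A peak was set aside when unplaced or when the median 24-base word within 100 bp of its centre occurred more than 1 time in NCBIM37. Genes were the nearest start of a protein-coding transcript in GENCODE M1, within 50000 bp. Older symbols were matched through RefSeq synonyms, and Nlrc5 was not found in the annotation. Tags were compared by an exact two-sided binomial test against the library totals, tested on simulated data. Intervals are exact at 95% and cover counting error only. Genome shares of motifs come from windows of 201 bp every 10000 bp. The named genes were the 10 kept places with most 72 h tags, the 5 highest and 5 lowest ratios, the 10 highest peaks of 72 h alone, the 6 highest of 48 h alone, and list genes with a kept place, a 48 h peak or up to 3 top 72 h alone peaks. A sequence and a named gene of these sets are not reported here. Further genes are marked as picked after their values were seen, or complete a count. The members, lists and sites were chosen with earlier results of these data known. Python 3.11.15, numpy 2.4.6, pandas 2.3.3, scipy 1.17.1, statsmodels 0.14.6, numba 0.67.0 and matplotlib 3.10.9 were used.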

Additional observations from a re-analysis of the deposited data

Results flagged for a closer look

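IRF8 and IRF4 differed in how their tags compared between 72 h and 48 h at the 49 kept IRF8 places that lay in both IRF4 lists. The median log2 ratio (72 h over 48 h) was 0.92 higher for IRF8 (0.77) than for IRF4 (-0.15). The difference was not tested, and each median rests on 1 library per time.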

How the results depend on the processing

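Of 172 recomputed values, 139 stayed within the range taken as unmoved, 33 moved and 0 were labelled reversed. Only the median log2 ratio could take the last label, so it says nothing of the counts and shares. Orders between classes were not scored, and that of the EICE share at 72 h alone and kept places changed with lists of the same length. The alternatives with a minimum of 40 tags, without places near chromosome starts and without site-free places in all 4 LPS lists were chosen after seeing the data. No paired analysis was possible because each group held 1 library, and no replicate could be left out. With multi-copy and unplaced peaks included, the median log2 ratio was 0.59, 17 kept places passed the exact binomial test and the EICE share of kept places was 29.0%. With the stricter rule on repeated sequence 3 places passed, and with scaling by the median ratio, which sets the median to 0 by construction, 2 were at least 2-fold higher and 0 passed. With both lists cut to the same length, 116 peaks were of 72 h alone, 39.5% of the 48 h list was kept and the median log2 ratio was 0.84. A 48 h peak whose 72 h partner was cut counted as 48 h alone there. The 72 h alone peaks then held the EICE in 41.4%, the ISRE in 17.2% and AP-1 in 12.1%, with 12.9% at promoters, 41.4% in the GC list and 44.0% in the IRF4 list of the same time. Windows of 50 bp gave the EICE 18.7%, the ISRE 9.16% and AP-1 5.86% at 72 h alone, and AP-1 7.37% at kept places. Whole peaks gave 25.9%, 16.6% and 12% at 72 h alone, and promoters of 2500 bp 17.5%. With at least 40 tags in both lists there were 17 kept places, 148 peaks of 72 h alone and 4 of 48 h alone, and 84.6% of the 48 h list was kept. A peak whose partner in the other list had fewer than 40 tags counted as alone there. These classes are therefore not those of the uncut lists. The EICE share was then 41.9% at 72 h alone, 0% at 48 h alone and 17.6% at kept places, and the ISRE share 16.2% at 72 h alone and 0% at 48 h alone. The shorter lists come with fewer peaks by construction, and the 40-tag minimum also moves places between the classes. The cause of the other moves was not tested. Depth limits what can be said of 48 h alone peaks, whose median was 11 tags.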

Other observations

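The 20 kept places that lay in both IRF4 lists and held none of the EICE, ISRE and AP-1 letters were seldom in the GC list. That list held 3 of the 20 (15%, exact 95% interval 3.21 to 37.9), against 9 of the 19 places in both IRF4 lists with an EICE alone (47.4%, 24.4 to 71.1), and the intervals overlap. Among the 20 are the kept places with the most IRF8 tags at 72 h, at Pak3 (205.5 tags at 72 h, 153.1 at 48 h) and Axin2 (166.4 at 72 h, 89.1 at 48 h), and the lower place at Cdk8 (97.9 at 72 h, 52.6 at 48 h). IRF4 had 175.3 tags at 72 h and 179.6 at 48 h at Pak3, and 191.2 at 72 h and 247.3 at 48 h at Cdk8. Whether these places carry a factor or gather tags in every library was not tested, since no input library was analysed here.

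The free letters inside the EICE were not evenly used. Between GGAA and GAAA the peaks of 72 h alone held GT in 78 of 187 (41.7%) and CT in 39, and the kept places GT in 15 of 37 and CT in 12. At 48 h alone GT was found in 5 of 9. The letters were not counted in genome or flanking windows, so these shares have no background beside them.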
